A study of Arabidopsis thaliana with 18 samples.

Results

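The 10 genes described here act in the metabolism and signalling of gibberellin (GA), and were followed through 4 lists of ChIP-seq peaks of the MADS-box TFs SVP and FLC in *A. thaliana* seedlings. They were 10 of the 27444 nuclear protein-coding genes of the annotation. They comprised the GA-inactivating enzymes *GA2OX8*, *GA2OX2* and *GA2OX6*, the biosynthetic enzymes *GA20OX2* and *GA3OX1*, the DELLA genes *RGL2*, *RGA*, *GAI* and *RGL1*, and the TF gene *DDF1*. A gene was counted as having a peak in a list when the authors had assigned it to a peak of that list. By this rule 7 of the 1503 peaks belonged to 3 of the genes, and the other 7 genes had no assigned peak in any list.

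The 18 samples were 2-week-old seedlings in 6 groups of 3, for all of which the labels give Columbia-0 with *FRI* as the ecotype. The titles of the *35S:GFP* samples do not name *FRI*. An active *FRI* allele keeps *FLC* expressed, and the plants with *flc-3* lack functional FLC. The SVP:GFP fusion was driven by the promoter of *SVP* itself (pSVP:SVP:GFP) and replaced the endogenous protein, which is lost in the *svp-41* background of these plants. An anti-GFP antibody was used on such plants carrying either *FLC FRI* (called SVP:GFP in WT) or *flc-3 FRI* (called SVP:GFP in *flc-3*). Plants expressing *35S:GFP*, in which a constitutive viral promoter drives GFP alone, were labelled as the negative control for SVP:GFP. FLC was precipitated with an antiserum in plants with both TFs (SVP FLC FRI, called FLC in WT) and in *svp-41* (svp-41 FLC FRI), with *svp-41 flc-3 FRI* plants labelled as the negative control for FLC. The labels give long days as the growth condition and the methods give short days. The lists held 523 peaks for SVP:GFP in WT, 246 for SVP:GFP in *flc-3*, 315 for FLC in WT and 419 for FLC in *svp-41*. The replicates are merged in them and no numbers of reads are given, so no SD, n or test accompanies the values and the depth is unknown. The paper also reports tests of binding between genotypes that used the replicates. They were not analysed here. A gene missing from a list had no peak that passed the authors' selection, which does not show that the protein was absent there.

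GA is a growth hormone that also promotes flowering in *A. thaliana*. Its last biosynthetic steps are made by GA20-oxidases and GA3-oxidases, and GA2-oxidases convert active GAs or their precursors to inactive forms. DELLA proteins, named after a run of amino acids in their N-terminal part, repress GA responses in the nucleus. When the GID1 receptors bind GA they recruit DELLAs to an F-box protein, and the DELLAs are degraded. SVP and FLC are floral repressors, and MADS-box proteins such as these bind the CArG-box, which consists of CC, 6 bases of A or T, and GG.

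To show what lay under the summits, 220 bases of the plus strand of TAIR10.1 are given around the SVP:GFP summit in WT of each of the 3 genes with a peak. Capitals mark bases that match the CArG-box with 1 mismatch in *GA2OX8* and *RGL2*, and the G-box CACGTG, a motif bound by bHLH and bZIP TFs, in *DDF1*. The regions were chr4:11303610-11303829 for *GA2OX8*, chr3:822670-822889 for *RGL2* and chr1:4292135-4292354 for *DDF1*. None of them overlapped an annotated exon.
GA2OX8: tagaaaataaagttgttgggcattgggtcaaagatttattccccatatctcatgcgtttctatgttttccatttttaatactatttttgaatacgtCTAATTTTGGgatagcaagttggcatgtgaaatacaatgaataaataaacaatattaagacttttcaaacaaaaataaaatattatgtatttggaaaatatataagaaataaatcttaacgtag
RGL2: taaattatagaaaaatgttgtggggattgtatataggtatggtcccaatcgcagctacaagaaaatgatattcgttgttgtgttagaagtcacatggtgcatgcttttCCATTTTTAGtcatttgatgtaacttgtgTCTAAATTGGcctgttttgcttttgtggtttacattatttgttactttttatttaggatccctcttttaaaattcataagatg
DDF1: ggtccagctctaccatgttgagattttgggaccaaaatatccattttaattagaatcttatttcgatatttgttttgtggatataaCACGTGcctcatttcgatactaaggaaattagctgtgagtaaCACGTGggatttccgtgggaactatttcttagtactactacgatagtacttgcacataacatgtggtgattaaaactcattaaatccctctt

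Of the 10 genes, 3 had a peak of SVP:GFP in WT (2.64% of all coding genes had one), 1 of SVP:GFP in *flc-3* (1.02% of all), 2 of FLC in WT (1.15%) and 1 of FLC in *svp-41* (1.32%). Over the 4 lists together, 3 of the 10 genes and 3.84% of all coding genes had a peak. The 10 genes were chosen with earlier results of these data known, so these shares are a description and do not show enrichment. The 3 genes showed different patterns. *RGL2* was in all 4 lists, as were 49 coding genes in all (0.179%). *DDF1* was in both WT lists and in neither mutant list, a pattern of 62 coding genes (0.226%). *GA2OX8* was in the list of SVP:GFP in WT alone, as were 352 coding genes (1.28%). The labels assign the same control samples to both lists of a protein. The supplementary methods say that negative control samples were combined into a single control for peak calling, without saying whether it was combined for each protein or across both. The lists of a protein, and possibly all 4 lists, therefore share a control and are not independent of each other.

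**Figure D1:**
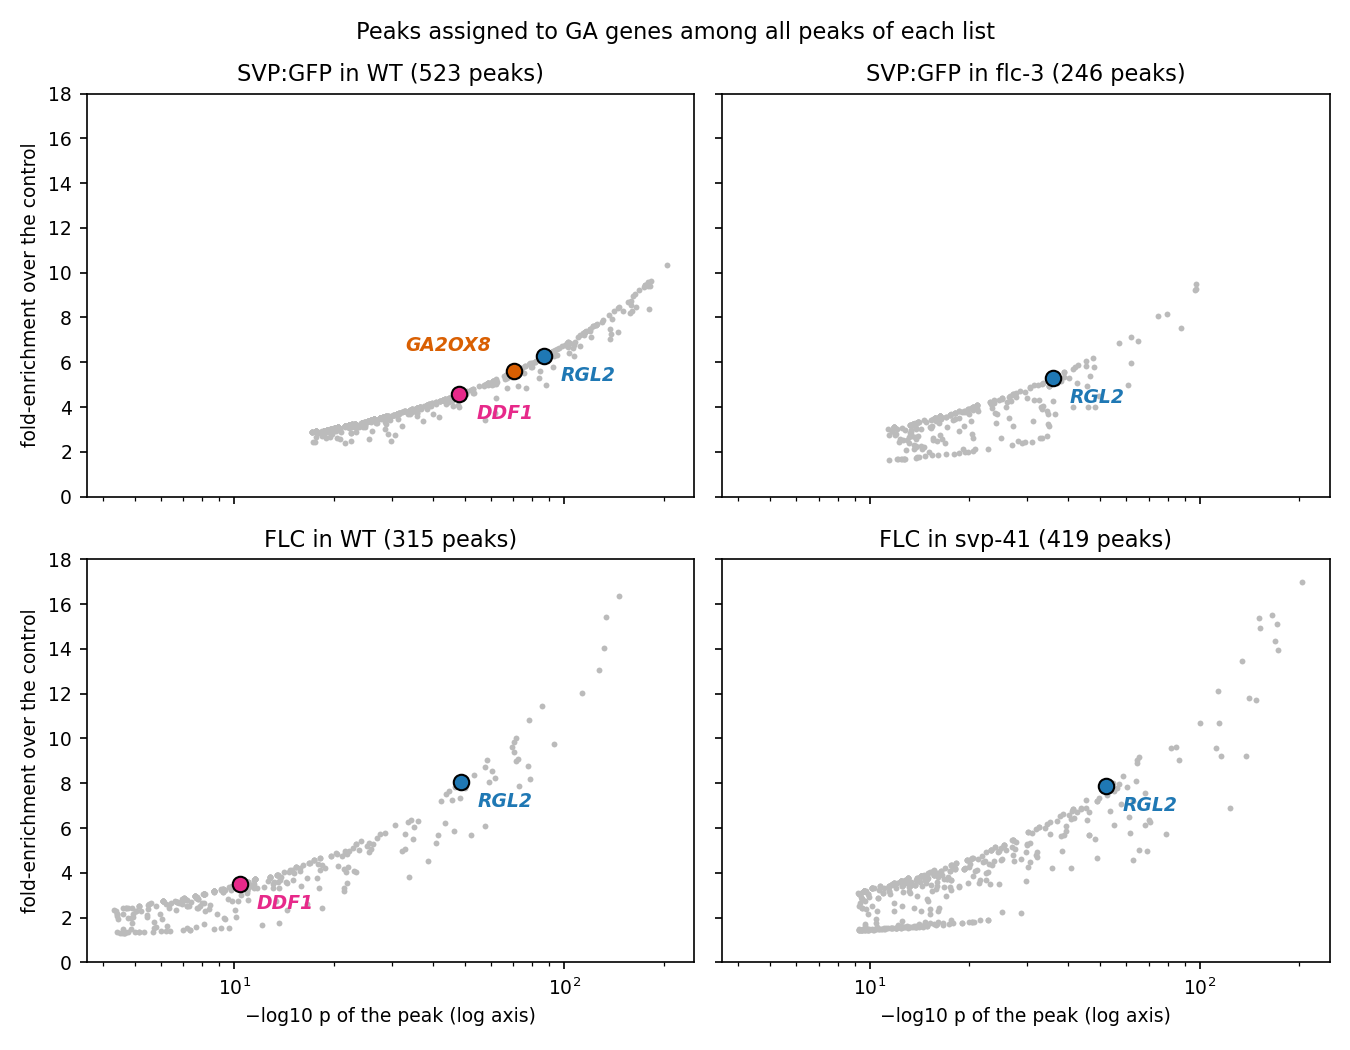
Each panel plots all peaks of 1 list (grey points), with the authors' −log10 p on a log axis and the fold-enrichment over the control on a linear axis. The coloured points are the peaks assigned to *RGL2*, *GA2OX8* and *DDF1*. *RGL2* lies in the upper part of each list, whereas *DDF1* lies at the median −log10 p of FLC in WT (10.4).

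Among the GA-inactivating enzymes, *GA2OX8* (AT4G21200, chromosome 4, 11302682 to 11306770, plus strand) was the gene with a peak. GA2OX8 belongs to the GA2-oxidases that act on C20 precursors of the active GAs. The peak of SVP:GFP in WT spanned 11303338 to 11303863 and had its summit at 11303720, which is 1038 bp into the gene. The summit was intronic in all 3 annotated transcripts, and the peak began 133 bp after the end of the preceding exon. This intron is the first in 2 of the transcripts and the second in the other. Measured from that exon end, which was taken over all transcripts together, its length is 736, 1629 or 2599 bp depending on where the next exon starts. The peak was assigned to *GA2OX8* alone, and 41.1% of the peaks of this list had a single assigned gene.

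The fold-enrichment of the *GA2OX8* peak was 5.59, where the median of the list was 3.70, and its −log10 p was 70.4, where the median was 31.4. It ranked 106 of 523 by −log10 p and 99 by fold-enrichment, so that 21.0% and 19.7% of the list had values at least as high. In the other lists no summit lay close to the gene. The nearest was 722 kb from the gene for SVP:GFP in *flc-3*, 439 kb for FLC in WT and 205 kb for FLC in *svp-41*. The paper nevertheless lists *GA2OX8* among the genes bound by both TFs only when both are present. It also reports separate ChIP experiments in which both TFs bound canonical CArG-boxes in the first intron of this gene. Those experiments were not analysed here.

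*GA2OX2* (AT1G30040) and *GA2OX6* (AT1G02400), both on chromosome 1, encode GA2-oxidases that act on C19 GAs. Neither had a peak in any list. The nearest summits to *GA2OX2* were 321 to 388 kb away in the 4 lists. Those to *GA2OX6* were 20.3 kb away for SVP:GFP in WT and 217 to 415 kb away in the other lists. The 20.3 kb site was assigned to 3 other genes, among them *HFR1*, which encodes a TF of light signalling and is named here after its position was seen.

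The biosynthetic enzymes *GA20OX2* (AT5G51810, chromosome 5) and *GA3OX1* (AT1G15550, chromosome 1), which catalyse consecutive steps towards active GA, had no assigned peak either. The nearest summit to any of the 7 genes without a peak was 4.68 kb upstream of *GA20OX2* and belonged to FLC in *svp-41*. This peak had a fold-enrichment of 3.53, ranked 311 of 419 by −log10 p and was assigned to no gene. Within 5 kb of a summit of that list lay 2.71% of all coding genes. FLC in WT had a summit 16.4 kb downstream of *GA20OX2*, and the SVP:GFP summits were 184 kb away in WT and 382 kb away in *flc-3*. The nearest summits to *GA3OX1* were 149 to 371 kb away.

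*RGL2* (AT3G03450, chromosome 3, 819337 to 821652, minus strand) encodes a DELLA known for its repression of seed germination. Its peak spanned 822445 to 822971 for SVP:GFP in WT, 822559 to 822993 for SVP:GFP in *flc-3*, 822570 to 823001 for FLC in WT and 822601 to 823008 for FLC in *svp-41*. The 4 peaks shared 370 bp, and the smallest overlap of a pair covered 70.3% of the wider peak. The summits were 1128 bp upstream of the gene for SVP:GFP in WT, 1132 bp in *flc-3*, 1138 bp for FLC in WT and 1137 bp in *svp-41*. They therefore fell within 10 bp of each other. At 42 peaks of SVP:GFP in WT that overlapped a peak in each of the other lists, the median range of the summits was 33.5 bp, and no other of these sites had a range of 10 bp or less.

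The fold-enrichment at *RGL2* was 6.26 for SVP:GFP in WT (list median 3.70) and 5.30 in *flc-3* (list median 3.50). It was 8.07 for FLC in WT (list median 3.28) and 7.90 in *svp-41* (list median 3.65). These values were 1.69, 1.51, 2.46 and 2.17 times the median of their own list. The −log10 p was 87.0 (rank 77 of 523) and 35.8 (rank 34 of 246) for SVP:GFP, and 48.5 (rank 27 of 315) and 52.1 (rank 46 of 419) for FLC. By fold-enrichment the peak ranked 74, 23, 22 and 27 in the same order of lists. A −log10 p at least as high as that of *RGL2* was held by 14.7%, 13.8%, 8.57% and 11.2% of the peaks of these lists. The values depend on the depth behind each list and were not compared between lists.

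All 4 peaks at *RGL2* were also assigned to AT3G03456, which is not in the annotation used here, and to AT3G03460 (822896 to 824546, minus strand), annotated as similar to a subunit of the Mediator complex. The summits lay in the 1243 bp between *RGL2* and AT3G03460. They were 106 to 116 bp from the 3′ end of AT3G03460, and the right end of each peak reached 75 to 112 bp into that gene. *RGL2* was therefore not the nearest gene to the summits. Of all pairs of a peak and an assigned coding gene for SVP:GFP in WT, 61.4% joined a peak to its nearest coding gene. The lists do not tell which of the assigned genes a site acts on.

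**Figure D2:**
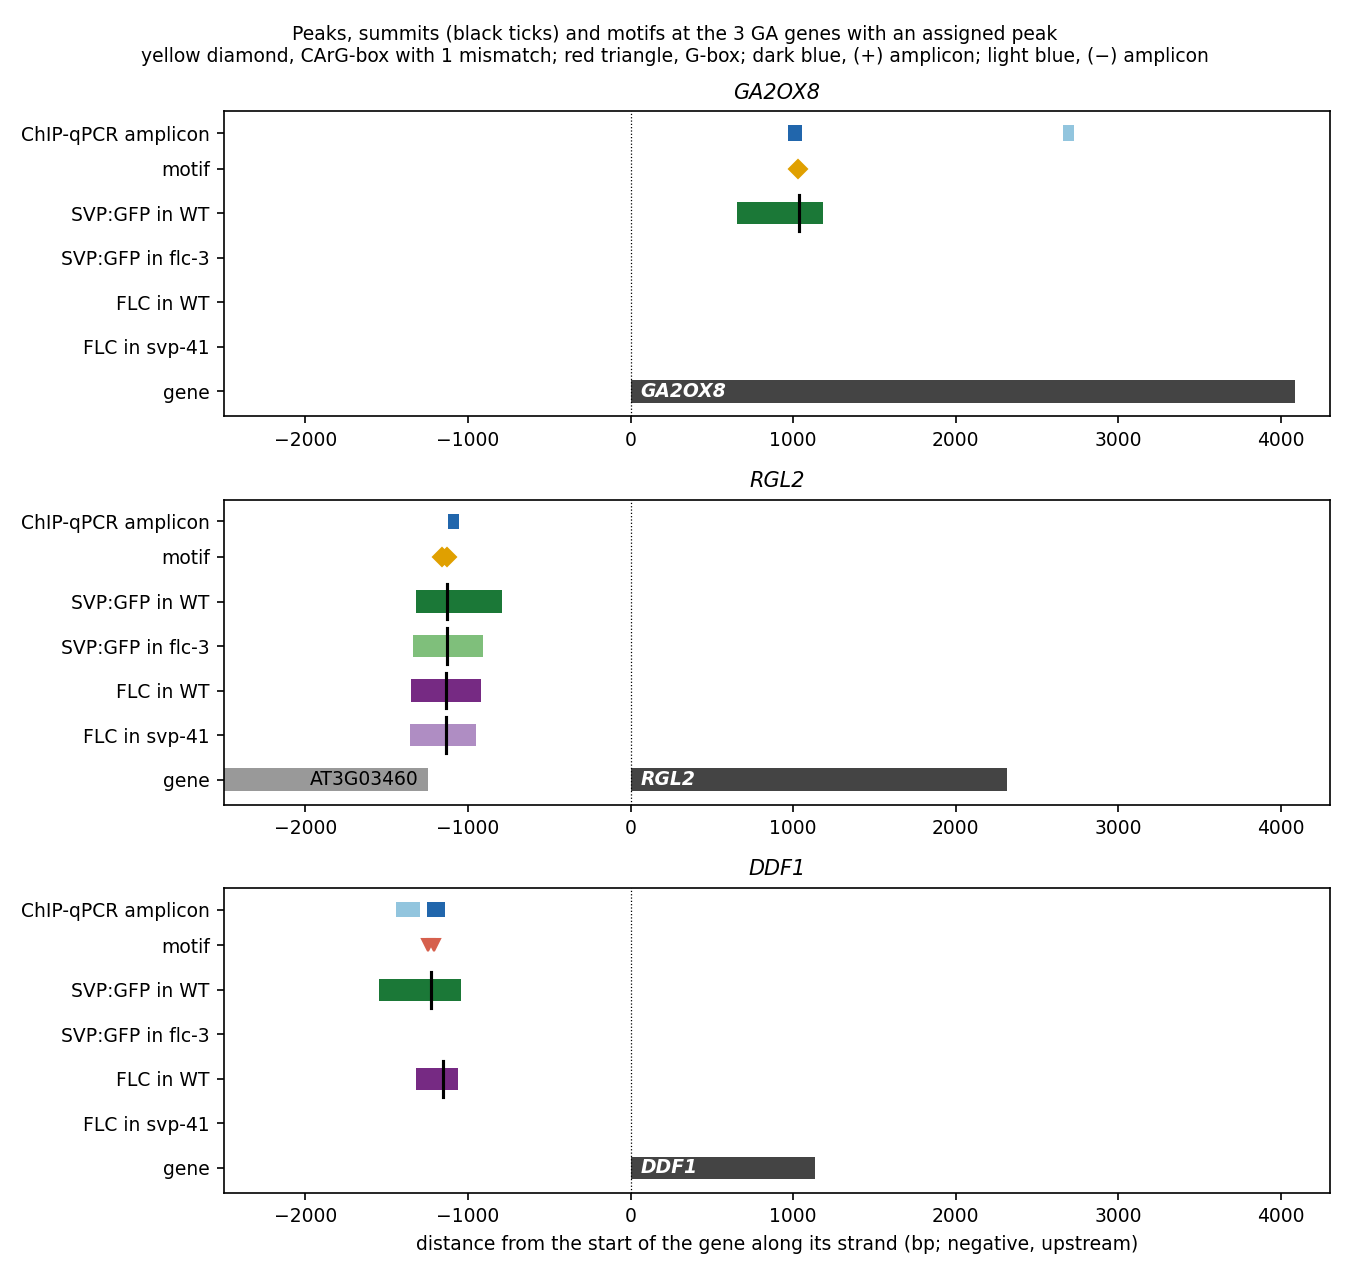
The x axis is the distance in bp from the start of each gene along its own strand, with negative values upstream. Coloured bars are the peaks of the 4 lists, black ticks their summits, dark grey bars the genes and the light grey bar the neighbour AT3G03460. Diamonds mark CArG-boxes with 1 mismatch, triangles mark G-boxes, and blue bars mark the amplicons of the study's ChIP-qPCR primers. The 4 summits at *RGL2* stand within 10 bp of each other, and the *GA2OX8* peak lies inside its gene.

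The other DELLA genes had no assigned peak. *GAI* (AT1G14920) and *RGA* (AT2G01570) encode the DELLAs known for restraining stem growth, and RGL1 (AT1G66350) is a close relative of RGL2. For *GAI* the nearest summits in the WT lists were at the same place, 10.8 kb upstream for SVP:GFP and 10.8 kb upstream for FLC, and were assigned to other genes. They were 175 kb away for SVP:GFP in *flc-3* and 44.4 kb away for FLC in *svp-41*. For *RGA* the SVP:GFP summits were 39.0 kb away in WT and 38.8 kb away in *flc-3*, and the FLC summits 111 kb and 188 kb away. For *RGL1* the nearest summits were those of FLC, 10.6 kb downstream in WT and 15.6 kb upstream in *svp-41*. The first was assigned to no gene. The second was assigned to AT1G66330 and to *ETR1* (AT1G66340), the ethylene receptor gene that lies next to *RGL1*. A summit within 11 kb was found for 9.85% of all coding genes in the list of SVP:GFP in WT and for 4.70% in that of FLC in WT, so such distances were not rare.

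**Figure D3:**
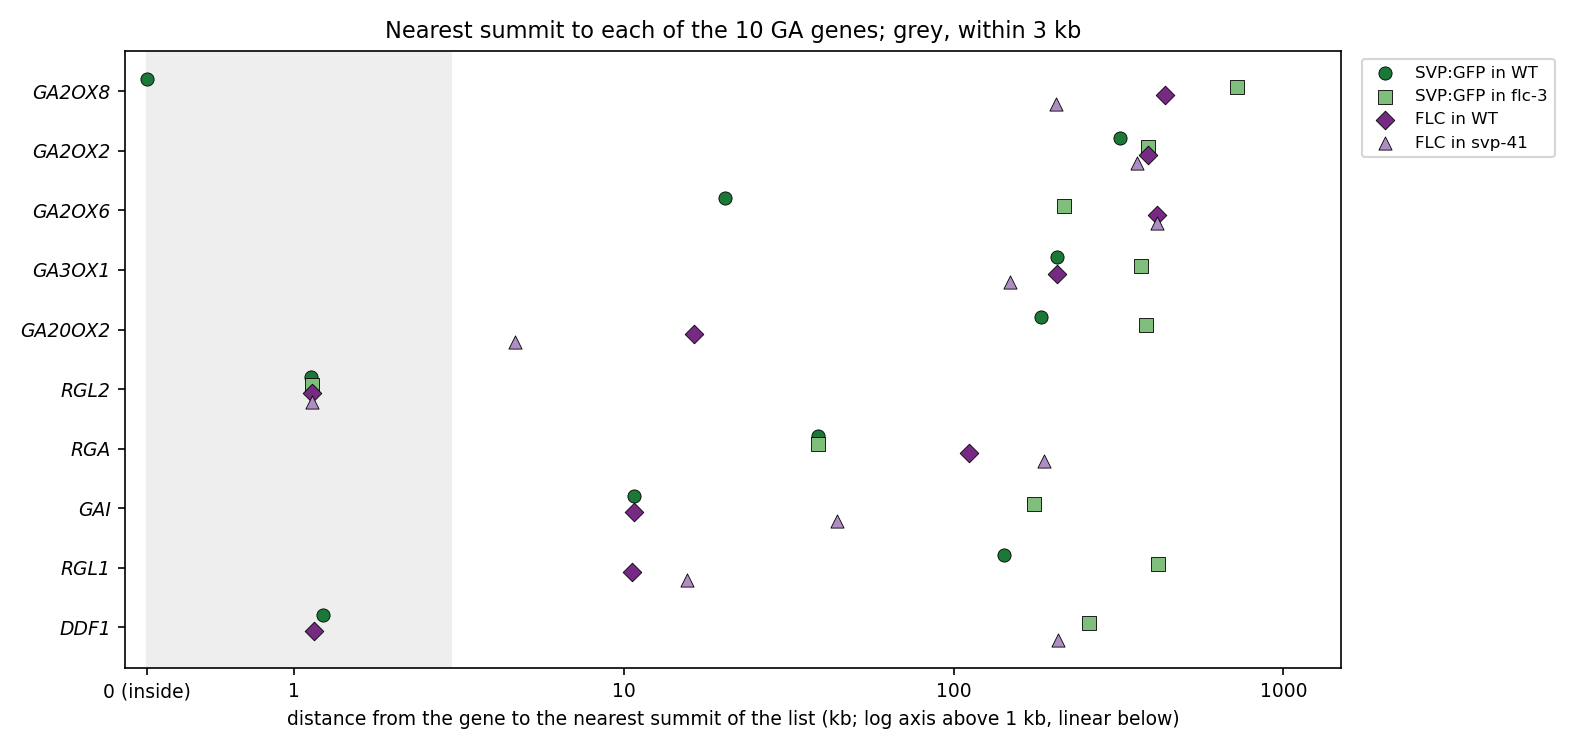
Each point is the distance in kb from 1 of the 10 GA genes to the nearest summit of 1 list, on an axis that is logarithmic above 1 kb. The grey band marks distances up to 3 kb. *GA2OX8*, *RGL2* and *DDF1* have points in the band, and the closest point of the other 7 genes is that of FLC in *svp-41* at 4.68 kb from *GA20OX2*.

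*DDF1* (AT1G12610, chromosome 1, 4289883 to 4291017, minus strand) encodes an AP2-type TF that activates *GA2OX7* and reduces GA levels when overexpressed. Its SVP:GFP peak in WT spanned 4292059 to 4292565, with the summit 1228 bp upstream of the gene. The FLC peak in WT spanned 4292078 to 4292338 and lay wholly within the SVP:GFP peak, with the summit 1153 bp upstream. The summits were 75 bp apart, where the median for the 143 SVP:GFP peaks in WT that overlapped an FLC peak in WT was 22.0 bp. Of these 143 peaks, 16 (11.2%) had summits at least as far apart. Both peaks were assigned to *DDF1* alone, and the next coding gene upstream lay 3037 bp from *DDF1*.

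The fold-enrichment at *DDF1* was 4.56 for SVP:GFP in WT (list median 3.70, rank 170 of 523 by −log10 p, which was 48.1). For FLC in WT it was 3.50 (list median 3.28) with a −log10 p of 10.4, rank 156 of 315, which is the median of that list. The FLC peak at *DDF1* was therefore of middle strength in its list. It did not pass a −log10 p of at least 20, which 77 of the 315 peaks of this list passed (460 of 523 for SVP:GFP in WT). Nor did it pass the minimum of the SVP:GFP list in WT (17.2) when that was applied to all lists. The −log10 p depends on the depth of each list, so these thresholds do not compare strength between lists. The nearest summits in the mutant lists were 258 kb away for SVP:GFP in *flc-3* and 207 kb away for FLC in *svp-41*.

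The 7 peaks lay at 3 sites, 1 for each gene, and peaks at the same site share most of their sequence. None of the 7 contained a CArG-box, and none did when 5 to 7 bases of A or T were allowed. In the 4 lists, 7.65% (SVP:GFP in WT), 8.94% (*flc-3*), 9.21% (FLC in WT) and 10.3% (*svp-41*) of all peaks contained an exact CArG-box. These searches counted exact strings only. The paper instead scored CArG-boxes with position weight matrices, and reports the strongest motif enrichment for the CArG-box in every group of peaks. The shares given here are therefore not comparable with its counts. They do not show that few sites hold a CArG-box by the paper's measure. With 1 mismatch allowed, the *GA2OX8* peak had a match 9 bp from its summit, which is CTAATTTTGG at 11303706 to 11303715. The *RGL2* peaks had a pair of matches. The first, CCATTTTTAG at 822778 to 822787, was centred 1 to 7 bp from the 4 summits, and the second, TCTAAATTGG at 822807 to 822816, 22 to 32 bp from them. Matches with 1 mismatch are common. Within the 300 bp around the summit, 47.8% of the SVP:GFP peaks and 59.0% of the FLC peaks in WT had one, and so had 39.4% of the 300 bp regions upstream of all coding genes and 31.8% of the 300 bp tiles of the genome.

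The *DDF1* peaks had no such match. They contained the G-box at 4292221 to 4292226 and at 4292263 to 4292268, 21 bp to either side of the SVP:GFP summit and 54 and 96 bp from the FLC summit. The G-box reads the same on both strands. At least 1 G-box was found within the 300 bp around the summit for 19.9% of the SVP:GFP peaks and 13.0% of the FLC peaks in WT, and in 7.09% of the 300 bp regions upstream of coding genes. At least 2 were found for 4.02% and 2.86% of these peaks. The *GA2OX8* and *RGL2* peaks had no G-box.

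CArG-boxes occurred near genes with and without a peak. In the window from 3 kb upstream to 1 kb downstream of each gene, 4 of the 10 genes had a CArG-box, as had 33.5% of all coding genes. *GA2OX6* had 2, at 1419 and 2474 bp from its start, and *RGL1* had 1, and neither gene had a peak. *GA2OX8* had 1, which was 1413 bp from the summit and outside the peak. The exact search therefore placed no CArG-box in this peak, whereas the paper describes binding at canonical CArG-boxes in the first intron. *RGL2* had 1, which was 1802 to 1812 bp from the summits. The windows of the other 6 genes, *DDF1* included, had none.

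A wider list of 43 genes of the GA pathway, which includes the 10, was examined to place them. None of its 5 early and 9 late biosynthesis genes had a peak, nor any of the 3 GID1 receptors, the 2 F-box proteins, the 3 signalling regulators or the 3 response genes. A peak was assigned to 1 of 9 inactivation genes (*GA2OX8*), 1 of 5 DELLA genes (*RGL2*) and 3 of 4 regulators of GA metabolism. *GA2OX7*, the target of DDF1, had none, and nor had *DDF2*, the close relative of *DDF1*. The other regulators with a peak were *TEM1* and *TEM2*, which encode repressors of *GA3OX* genes. *TEM1* was in both WT lists, like *DDF1*, and *TEM2* was in those of SVP:GFP in WT and FLC in *svp-41*. By −log10 p, the SVP:GFP peaks of *TEM1* in WT ranked 212 and 289 of 523, and its FLC peak 224 of 315. The *TEM2* peaks ranked 355 of 523 for SVP:GFP in WT and 239 of 419 for FLC in *svp-41*. Both were also assigned to another gene. In all, 5 of the 43 genes had a peak of SVP:GFP in WT, 1 of SVP:GFP in *flc-3*, 3 of FLC in WT and 2 of FLC in *svp-41*, against the shares of all coding genes given above. The list and its roles were drawn up with these peaks known, so its share and the differences between roles are a description.

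**Figure D4:**
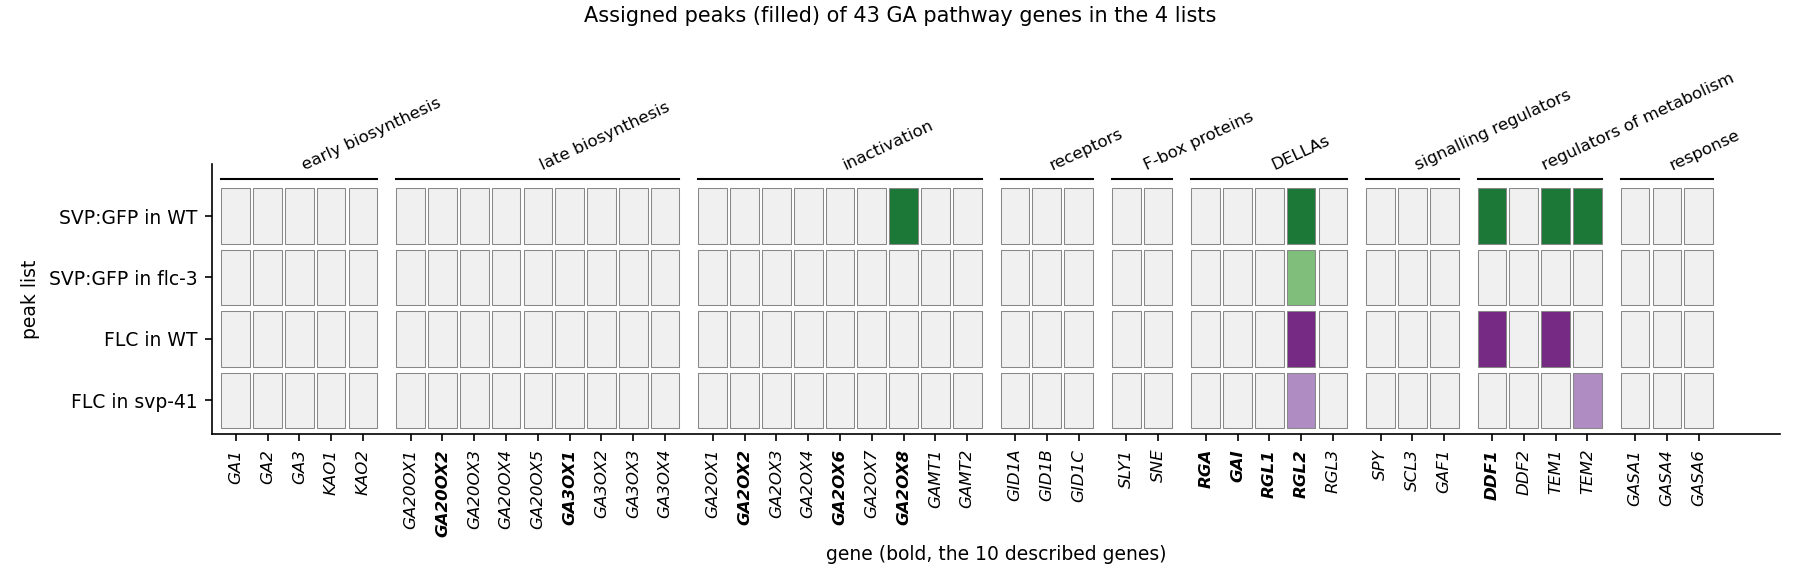
Columns are the 43 GA pathway genes grouped by role, with the 10 described genes in bold, and rows are the 4 peak lists. A filled cell is a gene with an assigned peak. The filled cells belong to 5 genes, and *RGL2* is the gene filled in all 4 rows.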

How the data were processed

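ChIP-seq peaks were analysed from the 4 deposited lists, in which the 3 replicates of a protein and genotype are merged. According to the labels and methods, the authors base-called with CASAVA 1.8, aligned the reads to TAIR10 with Bowtie2 2.0.2, used MACS with combined negative control samples to call peaks, selected those reproducible between replicates, and required detection by NarrowPeaks as well. The deposited fold-enrichment is the authors' ratio of sample to control, and the deposited −log10 p is from their peak calling. Summits are the deposited start plus offset. Whether starts count from 0 or 1 is not stated, which leaves 1 bp of uncertainty. The files hold no read counts, so the depth and the precision it gives are unknown. The number of columns of samples outside the series was 0.

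The authors' own gene assignments were used. Positions were taken from TAIR10.1, where, for 1901 of 1906 assignments to annotated genes, the summit was from 3 kb upstream to 1 kb downstream of the gene, and all 10 of the study's ChIP-qPCR primers for the 3 genes with a peak matched a single site. Peaks overlapping by at least 1 bp were counted as shared. Motifs were searched as consensus strings on both strands. Copied sequence was sought with blastn 2.17.0 (at least 95% identity over at least 150 bp of the 200 bp around the summit). Scripts used Python 3.11.15, pandas 2.3.3, statsmodels 0.14.6 and matplotlib 3.10.9. As a check of the code, 200 of 200 CArG-boxes planted in random sequences of A and T were recovered. So were 200 of 200 positions set around the windows of annotated genes. Such sequences hold no other matches, so the check does not measure accuracy in the genome. The genes named are the 10 members, the genes assigned to the same peaks, other pathway genes with a peak and genes next to a member that a nearby peak was assigned to. The members, the pathway list and the alternatives were chosen with earlier results of these data known.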

Additional observations from a re-analysis of the deposited data

How the results depend on the processing

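Of 71 values recomputed under the alternatives, 53 stayed near the value reported and 18 moved. A count stayed near when it was equal or within a set ratio. A rank stayed near when it fell in the Wilson interval of its share of the list. That interval served only as a set band, because a rank in a complete list has no sampling error. Some values could not move. The threshold of 17.2 is the minimum of the SVP:GFP list in WT, and 246 is the length of the SVP:GFP list in *flc-3*. With summits limited to 1 kb upstream of a gene up to its end, the number of the 10 genes with a peak became 1 for SVP:GFP in WT (*GA2OX8*) and 0 in each of the other 3 lists, since the summits at *RGL2* and *DDF1* lie more than 1 kb upstream. The same window gave 2 of the 43 pathway genes for SVP:GFP in WT, 0 in *flc-3*, 1 for FLC in WT and 0 in *svp-41*. With a −log10 p of at least 20, or with 1 threshold (17.2) for all lists, FLC in WT kept 1 of the 10 genes, *RGL2*, and 1 of the pathway genes, and FLC in *svp-41* kept 1 pathway gene. A −log10 p of at least 20 was reached by 77 of the 315 FLC peaks in WT and 152 of the 419 in *svp-41*. Lists of equal size (246 peaks), genes assigned again with TAIR10.1, any base of a peak in the window and removal of peaks at copied sequence, where none of the 7 peaks lay, left the counts of the 10 genes as reported. Ranked by fold-enrichment, *RGL2* moved to 23 for SVP:GFP in *flc-3* and 27 for FLC in *svp-41*, and *DDF1* to 132 for FLC in WT. With 1 mismatch, 5 of the 7 peaks had a CArG-box, namely the *GA2OX8* peak and the 4 overlapping peaks at *RGL2*. Such a match was common in whole peaks. It was held by 71.5% (SVP:GFP in WT), 48% (*flc-3*), 57.8% (FLC in WT) and 54.2% (*svp-41*) of all peaks. The pairs of shared peaks were the same with a reciprocal overlap of at least 50% and with summits within 100 bp. No paired analysis was possible because the lists merge the replicates. Without reads or single-replicate peaks, the error of a peak and the depth needed to detect it cannot be given.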

Other observations

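The amplicons of the study's ChIP-qPCR primers can be placed against the peaks. The amplicon of the *RGL2* (+) pair (822706 to 822774) lay within all 4 peaks, 6 to 16 bp from their summits, and that of the *GA2OX8* (+) pair (11303649 to 11303733) held the summit. The *GA2OX8* (−) amplicon lay 1479 bp beyond the end of the peak. The *DDF1* (+) amplicon (4292161 to 4292271) held both summits and both G-boxes. By contrast, the *DDF1* (−) amplicon (4292311 to 4292461) lay wholly within the SVP:GFP peak in WT, 66 bp from its summit, and 28 of its 151 bp lay within the FLC peak in WT. What these amplicons yielded was not analysed here.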
